A study of Mus musculus with 10 samples.

Results

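The mitochondrial ribosomal protein genes were followed through 8 mRNA-sequencing libraries of mouse embryonic stem (ES) cells and 1 pair of ChIP-sequencing libraries. Members were all genes whose symbol begins with Mrpl or Mrps and a digit, without Mrpl42 and without symbols holding -ps. This gave 75 genes of 22713 gene IDs, 46 with an Mrpl symbol (large subunit) and 29 with an Mrps symbol (small subunit). Of these, 74 passed the filter of a normalized read count, scaled to library size (CPM), above 1 in at least 1 library of a table. The rule is one of symbols alone.

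The first table held 4 mRNA libraries, 1 per group. In Pontinf/f; CreER ES cells, which carry floxed alleles of Pontin (Ruvbl1, an ATPase of chromatin remodelling complexes) and a Cre that OHT (4-hydroxytamoxifen) switches on, RNA was taken from untreated cells (WT) and from cells given OHT, after 3 days in OHT 3D and after 4 days in OHT 4D. ZHBTc4 ES cells, in which tetracycline (Tc) shuts off Oct4, were sampled after 2 days of Tc (Tc 2D). The second table held ZHBTc4 ES cells 4 days after infection with lentivirus, 2 libraries carrying a control shRNA and 2 carrying one directed at the long noncoding RNA linc1253. The ChIP-sequencing libraries, 1 for Pontin and 1 for GFP as control, came from ZHBTc4 cells with no treatment. The labels name no vehicle for WT. The ES cells of the study were grown with or without feeder fibroblasts, and which libraries had feeders is not given in the sources used here.

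Mitochondria make a small set of respiratory chain subunits from their own genome, and a dedicated ribosome, the mitoribosome, translates the mRNAs. Its RNAs are encoded by mitochondrial DNA, but all of its proteins are encoded in the nucleus, made in the cytosol and imported. The large subunit joins amino acids into a chain and the small subunit reads the mRNA. The grouping by symbol is approximate: Mrps18a and Mrps30 carry small-subunit symbols although their proteins sit in the large subunit, and Mrps36 is now assigned to the 2-oxoglutarate dehydrogenase complex.

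Reads on genes ranged from 17187595 to 37951742 per library, and all CPM values were whole reads within 0.01 read. The targeted genes agreed in direction with the labels. Ruvbl1 stood at 198 CPM in WT and at 33.3 (OHT 3D) and 50.9 CPM (OHT 4D) with OHT. Pou5f1 (Oct4) had 301 CPM in WT, 642 and 582 CPM in the control shRNA libraries and 21.1 CPM at Tc 2D. Ruvbl1 was lower at Tc 2D too, at 85.0 CPM (log2-fold-change against WT -1.21), against 166 and 186 CPM in the separately normalized control shRNA libraries. In this 1 library Pontin mRNA was thus low as well as Oct4 mRNA. The study itself, by quantitative RT-PCR and immunoblot, reported that Oct4 depletion did not significantly change Pontin mRNA or protein. The level of linc1253 was not analysed here.

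Promoter sequences are shown first for 4 of the 5 members with the largest falls at Tc 2D (Mrpl36, Mrpl50, Mrpl34 and Mrps12) and for Mrps18a, the member that was highest at Tc 2D against ZHBTc4 control cells. They were picked after their values were seen. Each is the 250 bases before the RefSeq start site in build GRCm38.p6, written 5′ to 3′ along the gene. Capitals mark matches, on either strand, to the letters CCGGAAG (the core bound by ETS factors such as GABP), GCATGCGC (an NRF1 core), AAGATGGC (a YY1 core) and CACGTG (an E-box).
Mrpl36 (chr13:73330759-73331008, + strand): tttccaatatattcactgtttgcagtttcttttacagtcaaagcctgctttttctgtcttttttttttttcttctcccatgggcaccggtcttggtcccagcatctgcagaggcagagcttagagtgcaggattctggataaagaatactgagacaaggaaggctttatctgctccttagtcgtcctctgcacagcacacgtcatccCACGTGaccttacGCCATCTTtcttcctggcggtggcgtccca
Mrpl50 (chr4:49521084-49521333, - strand): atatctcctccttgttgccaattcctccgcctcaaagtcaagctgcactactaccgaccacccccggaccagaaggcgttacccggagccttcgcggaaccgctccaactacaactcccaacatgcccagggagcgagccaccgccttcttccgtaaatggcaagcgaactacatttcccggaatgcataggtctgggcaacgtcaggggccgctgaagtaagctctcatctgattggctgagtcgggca
Mrpl34 (chr8:71464676-71464925, + strand): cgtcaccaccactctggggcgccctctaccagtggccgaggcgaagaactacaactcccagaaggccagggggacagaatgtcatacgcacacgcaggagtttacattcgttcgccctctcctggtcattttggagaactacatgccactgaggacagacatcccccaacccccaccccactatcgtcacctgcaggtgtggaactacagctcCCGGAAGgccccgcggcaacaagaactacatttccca
Mrps12 (chr7:28741822-28742071, - strand): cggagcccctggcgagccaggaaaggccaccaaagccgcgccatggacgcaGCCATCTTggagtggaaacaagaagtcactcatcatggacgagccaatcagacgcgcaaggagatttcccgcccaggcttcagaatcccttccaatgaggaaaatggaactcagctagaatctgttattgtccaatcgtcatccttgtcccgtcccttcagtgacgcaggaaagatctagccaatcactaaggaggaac
Mrps18a (chr17:46110754-46111003, + strand): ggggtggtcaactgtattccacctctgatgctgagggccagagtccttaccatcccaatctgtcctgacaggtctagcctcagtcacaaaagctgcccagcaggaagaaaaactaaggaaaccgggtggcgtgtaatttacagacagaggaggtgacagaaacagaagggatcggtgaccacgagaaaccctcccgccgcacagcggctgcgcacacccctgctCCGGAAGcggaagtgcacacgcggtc

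In Mrpl36, whose protein is a short component of the large subunit, an E-box lay 43 to 38 bases before the start and a YY1 core 30 to 23 bases before it. Mrpl34 had an ETS core at 37 to 31 bases, Mrps18a an ETS core at 26 to 20 bases and Mrps12 a YY1 core at 199 to 192 bases before the start. The Mrpl50 window held none of these letters. Mrpl36 and Mrps12 thus shared the YY1 core, and no motif of this set was in all 4 of the windows of members that fell. In the longer window that also holds the first 50 bases of the gene, Mrps12 had an ETS core as well and Mrps18a a YY1 core. In that window Mrps12, which fell, and Mrps18a thus held the same cores. Mrps14, which is not printed, had no match to the set.

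A RefSeq promoter (250 bases before to 50 after the start) was matched by symbol for 66 of the 75 members. The ETS core was in 24 of them (36.4%), against 18.9% of 9521 expressed genes and 9.93% of 27025 genes. The YY1 core was in 11 (16.7%), against 4.92% of expressed genes and 3.19% of all genes, and the NRF1 core in 8 (12.1%), against 6.01% and 3.05%. The E-box was in 5 (7.58%), against 12% of expressed genes. The octamer ATGCAAAT, which Oct4 can bind, was in 0 of 66 against 1.64% of expressed genes. Other letters were spread much as among expressed genes, with CCAAT in 39.4% against 43.2% and TATAAA in 7.58% against 8.59%. The median GC content was 58% in members and 61.0% in expressed genes. Both strands were searched and motifs may overlap. These are matches of letters, and a gene counted if any of its RefSeq windows held them. No test was run on them. The promoters of Mrpl13, Mrpl15, Mrpl19, Mrpl38, Mrpl4, Mrpl54, Mrps28, Mrps34 and Mrps35 were not analysed here.

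All but 1 member were expressed in every library. The median member stood at 44.3 CPM in WT, at 41.0 (OHT 3D) and 51.2 CPM (OHT 4D) with OHT, and at 31.4 CPM with Tc. In the second table the medians were 50.1 and 50.3 CPM in the control shRNA libraries and 49.8 and 48.1 CPM in the linc1253 shRNA libraries. In WT, 66.1% of the 13449 genes that passed the filter lay below the median member. The tables were normalized separately, so levels across them are not on one scale.

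**Figure D1:**
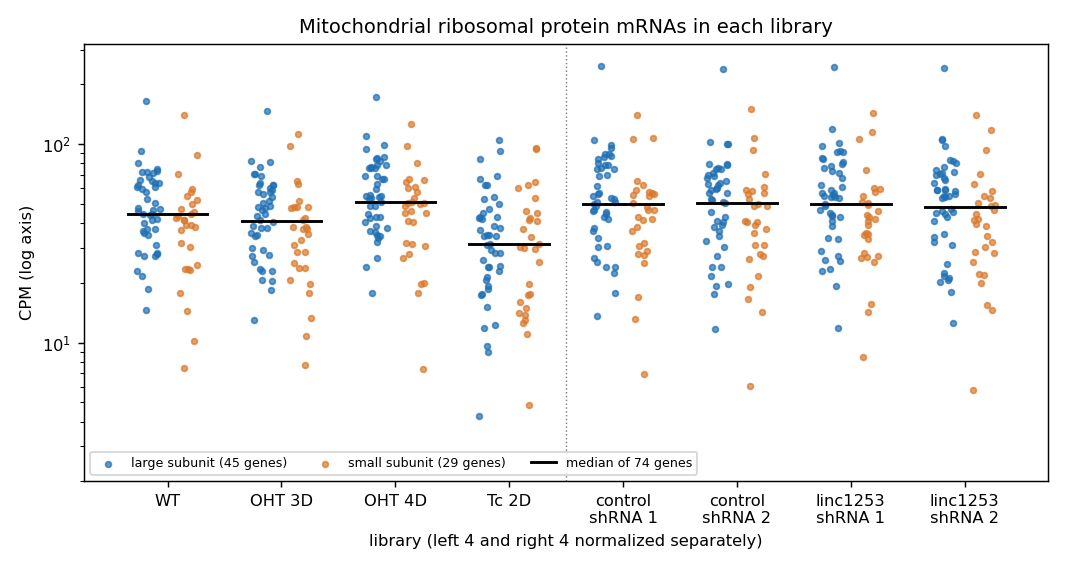
Level of each of 74 mitochondrial ribosomal protein mRNAs (CPM, log axis) in the 8 mRNA libraries, with large-subunit genes in blue, small-subunit genes in orange and the median of the 74 as a black line. The median is lowest at Tc 2D (31.4 CPM) and highest in the first table at OHT 4D (51.2 CPM), and the highest point in every library is Mrpl15.

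Summed over all 75 genes, member mRNA came to 3549 CPM in WT. With OHT the sum was 3296 CPM (3D) and 4126 CPM (4D), and with Tc 2681 CPM. The control shRNA libraries had 4136 and 3954 CPM and the linc1253 shRNA libraries 4147 and 3937 CPM. In each shRNA group the first replicate was the higher one, and the groups overlapped. Expressed as RPM, which scales the reads on genes of every library to one total without the authors' TMM factors, the sums were 4443 in WT, 4238 (3D) and 5324 (4D) with OHT, and 4198 with Tc. The control shRNA libraries had 4221 and 3895 RPM, so on this scale the Tc 2D sum was below WT but between the controls of its own cell line. Summed over small-subunit genes alone it was above WT, at 1597 RPM (95% counting interval 1579 to 1616) against 1553 RPM (1535 to 1571). The direction of the summed level at Tc 2D therefore depends on the scale and the control.

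Mrpl15, a core protein of the large subunit with a bacterial counterpart, was the most abundant member by CPM, at 165 in WT, 147 (3D) and 174 (4D) with OHT, 105 with Tc, and between 238 and 247 in the shRNA libraries. Per kb of exon the order changed. Mrpl11, which forms the base of the stalk where translation factors dock, led with 83.6 CPM per kb in WT. It was followed by Mrps16 (76.5), Mrpl52 (66.0), Mrpl2 (61.6) and Mrpl28 (51.2). By the mean of the control shRNA libraries Mrpl11 was first again, with 95.5 and 85.7 CPM per kb, and Mrpl52 second, with 92.3 and 66.2. Mrpl11 was above Mrpl52 within each control library, although the ranges of the replicates overlapped. At Tc 2D Mrpl52 was the higher of these genes (50.3 against 42.3 CPM per kb).

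At the lower end were Mrps34 (3.60 CPM per kb in WT), Mrpl33 (3.74), Mrps6 (6.38) and Mrpl48 (6.56), above Mrpl53. Mrpl53 had 1 read at Tc 2D, 1 read in linc1253 replicate 2 and 0 in the other libraries, and did not pass the filter. Of its exonic bases 87.1% are shared with Ccdc142, and the same shared part was 77.8% in Mrps34, 43.8% in Mrps6 (with Slc5a3) and 41.9% in Mrpl48. In all, 26 members shared exonic bases with another gene in the NCBIM37 annotation. Mrpl53 and Mrps6 lie on the same strand as the genes named, and for genes on opposite strands the library kit does not mark strand. Reads in shared bases therefore cannot be told apart, and the levels of these members are uncertain.

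The first comparison asked what mRNAs change when Pontin is lost. At OHT 3D, members were on the whole slightly below WT. The median log2-fold-change, on the scale of log2(CPM + 1), was -0.11 and 53 of 74 were below 0, against a median of -0.02 over all 13449 genes. An absolute log2-fold-change above 0.58 was the threshold for a call. By it 1 member fell (1.35%) and 0 rose, while of all genes 5.88% fell and 6.01% rose. With 1 library per time point these differences have no replicate check, and intervals cover the counting of reads only. The comparisons of both OHT time points and of Tc 2D share the WT library.

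The member that fell was Mrps24, a small-subunit protein with a bacterial counterpart. It had 39.0 CPM in WT and 25.2 CPM at OHT 3D, a log2-fold-change of -0.61 (95% counting interval -0.76 to -0.46). Its level was not stable between replicates either: the control shRNA libraries gave 46.5 and 27.9 CPM and the linc1253 shRNA libraries 41.2 and 25.6 CPM. Those replicate differences (0.71 and 0.67 on the log2 scale) were as large as the fall at OHT 3D. The call was lost with a pseudocount of 3 (-0.57), in RPM of reads on genes (-0.576) and at a threshold of 1.

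Below the threshold, the next lowest were Mrpl48 (-0.42), Mrpl23 (-0.39), Mrps36 (-0.39) and Mrps10 (-0.37). The highest were Mrpl49 (0.30), Mrps11 (0.28), Mrps18b (0.21), Mrps7 (0.21) and Mrpl9 (0.19). None of these 9 passed the threshold.

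At OHT 4D most members were above WT. The median log2-fold-change was 0.23, 70 of 74 were above 0 and the median of all genes was 0.00 to 2 decimals. Large-subunit genes had a median of 0.26 (44 of 45 above 0) and small-subunit genes 0.21 (26 of 29). By the threshold, 1 member rose (1.35%) and 0 fell, against 6.48% and 8.89% of all genes. The shift was therefore broad and small, with hardly any member passing the threshold.

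The riser was Mrps6, a small-subunit protein with a bacterial counterpart, with 10.1 CPM in WT, 10.8 CPM on day 3 and 17.8 CPM on day 4, a log2-fold-change of 0.75 (95% counting interval 0.53 to 0.98). Slc5a3, with which it shares exonic bases, stood at 4.74 CPM in WT and 4.34 CPM at OHT 4D. After Mrps6 came Mrpl54 (0.55), Mrps7 (0.53), Mrpl52 (0.50) and Mrpl49 (0.50), none past the threshold. The lowest were Mrps5 (-0.16), Mrpl24 (-0.16), Mrps10 (-0.04), Mrps34 (-0.00) and Mrpl32 (0.01).

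OHT 4D was also compared with OHT 3D directly, a comparison added after the data were seen. The median was 0.33 (0.03 over all genes), 72 of 74 members were higher at OHT 4D, 6 rose (8.11%) and 0 fell. Of all genes, 5.47% rose and 8.84% fell. The 6 were Mrpl54 (18.3 to 32.1 CPM, 0.78), Mrpl52 (22.8 to 38.9 CPM, 0.74), Mrps6 (10.8 to 17.8 CPM, 0.67), Mrps24 (25.2 to 40.7 CPM, 0.67), Mrpl28 (54.0 to 85.0 CPM, 0.64) and Mrpl55 (22.9 to 36.2 CPM, 0.64).

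The size of these shifts can be set beside that of replicates. Only the shRNA libraries had replicates, and they are of another cell line than the OHT libraries and were normalized separately. Between the control shRNA replicates the members had a median difference of 0.03 and a range of -0.31 to 0.71, with 1 of 74 beyond 0.58. Of the 74, 33 differed from WT at OHT 3D by more than they did between replicates of either shRNA group, 49 at OHT 4D and 62 between OHT 4D and OHT 3D. These are 44.6%, 66.2% and 83.8% of the members, and the same held for 51.7%, 57.3% and 59.3% of all genes. The members with the larger gain from OHT 3D to OHT 4D also tended to be higher in the first control replicate than in the second. Across the 74 members Pearson's r was 0.50 and Spearman's rho 0.48, and for the 2 replicate differences, control and linc1253, r was 0.80. Members with a short total exon length tended to be those with the larger gain from OHT 3D to OHT 4D (r = -0.26 with log2 exon length). They also tended to be higher in the first control replicate than in the second (r = -0.36). These are descriptions over genes of single libraries. Fibroblast markers were compared between the replicates too. Of 13407 genes, 6936 were higher in replicate 1 with control shRNA and 6961 with linc1253 shRNA. In each shRNA group 10 of 16 fibroblast markers were higher in replicate 2. The 16 summed to 1104 and 1141 CPM in the control libraries and 992 and 1086 CPM in the linc1253 libraries. Fn1 made up most of these sums, with 798 and 899 CPM in the control libraries and 699 and 783 CPM in the linc1253 libraries. Acta2 was higher in replicate 2, with 0.277 and 3.31 CPM with control shRNA and 0.180 and 17.7 CPM with linc1253 shRNA. Vim went the other way, with 217 and 163 CPM with control shRNA and 205 and 173 CPM with linc1253 shRNA. Thy1, Col5a1, Col6a1, Pdgfrb and Lum were also lower in replicate 2 of each group. The part of these markers in the replicate difference was not tested, nor was what replicate 1 and OHT 4D share.

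**Figure D2:**
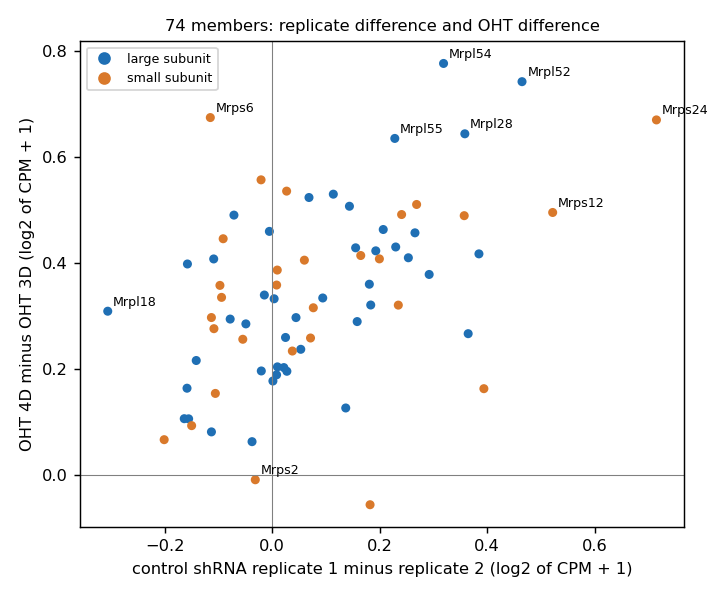
For 74 members, the difference between control shRNA replicates 1 and 2 (x axis) and between OHT 4D and OHT 3D (y axis), both in log2 of CPM + 1, with large-subunit genes in blue and small-subunit genes in orange. Most points lie above 0 on the y axis (72 of 74), and Mrps24, Mrpl52 and Mrpl54 lie to the right as well, whereas Mrps6 lies to the left of 0.

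Fibroblast markers moved with OHT. Of 14 that passed the filter, 13 rose on day 3 and 13 on day 4. The exception was Fn1, which made up most of the summed level of the 16 markers and was lower with OHT (794, 642 and 556 CPM in WT, OHT 3D and OHT 4D). The sum was 864 CPM in WT, 1115 on day 3 and 1096 on day 4, with Col1a1 at 4.20, 46.5 and 64.6 CPM, and Lum was at 0 in WT and OHT 3D. Of trophectoderm markers 5 of 9 rose and 2 fell on day 3 (Eomes -0.67, Tfap2c -0.75), and 6 rose and 1 fell on day 4 (Tfap2c -0.59), with sums of 247 and 430 CPM (248 CPM in WT). Of primitive endoderm markers 3 and 6 of 7 rose and 0 fell (178 and 222 CPM, 89.7 CPM in WT), with Dab2 at 0 throughout. Of 10 ES cell markers 0 were called on day 3 and 1 fell on day 4 (Fgf4, -0.62), with medians of -0.03 and 0.11. The part of these cell types in the members' values was not tested. In bulk RNA, fewer cells of a type and less RNA per cell cannot be told apart.

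The comparison of Tc 2D with WT asked what changes when Oct4 is lost. Members were lower at Tc 2D, with a median log2-fold-change of -0.41 against -0.06 over all genes, and 62 of 74 below 0. By the threshold 23 members fell (31.1%) and 0 rose. Falls were common among all genes too, at 25.8%, and rises at 23.9%, so the share of falls was near the background, whereas that of rises was below it. Among large-subunit genes 16 of 45 fell (median -0.50) and among small-subunit genes 7 of 29 (median -0.34). WT is another cell line than ZHBTc4, so cell line and Oct4 loss cannot be told apart in this comparison.

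The largest fall was in Mrpl36, at 28.3 CPM in WT, 27.4 and 38.0 CPM with OHT and 4.26 CPM with Tc. The log2-fold-change was -2.47 (95% counting interval -2.71 to -2.24). In ZHBTc4 control cells Mrpl36 had 24.1 and 24.2 CPM, so the low level was found at Tc 2D and in no other library.

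Mrpl50, a large-subunit protein found only in mitochondrial ribosomes, had 71.5 CPM in WT, 70.7 and 76.1 CPM with OHT and 12.3 CPM with Tc, a log2-fold-change of -2.45 (-2.60 to -2.29). The control shRNA libraries had 56.7 and 63.3 CPM. Its neighbour Zfp189, whose start lies 83 b away on the other strand, went from 7.47 CPM in WT to 18.3 CPM at Tc 2D (1.19).

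Mrpl34, a large-subunit protein with a bacterial counterpart, had 28.4 CPM in WT and 8.92 at Tc 2D (-1.57), with 45.4 and 34.5 CPM in the control shRNA libraries. Mrps14, in the head of the small subunit, had 42.2 and 14.1 CPM (-1.52), and 48.2 and 40.6 CPM in the control shRNA libraries. For each of these 2 genes the Tc 2D library was the lowest of all 8.

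Mrps12, the counterpart of the bacterial protein that lines the decoding site, had 31.6 CPM in WT and 11.1 at Tc 2D (-1.43). It had 38.5 and 26.5 CPM in the control shRNA libraries, so replicates of this gene spread widely, but Tc 2D was below both. Sars2, the mitochondrial seryl-tRNA synthetase, starts 171 b away on the other strand and had 30.0 CPM in WT and 33.2 CPM at Tc 2D (0.14). Mrpl49 (-1.20), Mrpl18 (-1.11) and Mrpl48 (-1.08) also fell by more than 1 on the log2 scale, but Mrpl48 did not pass the threshold against ZHBTc4 control cells (-0.56).

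At the other end stood Mrps6 (0.52), Mrps18b (0.45), Mrps7 (0.36), Mrpl38 (0.29) and Mrps10 (0.23), all under the threshold. Slc5a3, which shares exonic bases with Mrps6, rose at Tc 2D, from 4.74 to 10.9 CPM (1.05), and reads in the bases they share cannot be told apart. The Mrps18 family holds 3 related proteins that occupy different places on the ribosome. Mrps18a had 41.5 CPM in WT and 42.6 at Tc 2D (0.03), Mrps18b 24.6 and 34.0 CPM (0.45) and Mrps18c 23.5 and 17.6 CPM (-0.40). None passed the threshold against WT. Against ZHBTc4 control cells the values were 0.63, 0.20 and -0.43, in the same order of genes.

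Against ZHBTc4 cells with control shRNA, which share the cell line but differ in lentivirus, in normalization table, in sequencer model and in time, the comparison was made after all libraries had been put on one median-ratio scale. On that scale most members were lower at Tc 2D. The members' median was -0.42 (0.00 over all genes), 22 of 74 fell (29.7%) and 1 rose, against 23.6% falls and 23.6% rises of all genes. With deposited CPM, normalized separately, 39 members fell (52.7%, against 30.1% of all genes), whereas the summed member RPM at Tc 2D was not below both controls. Both comparisons share the Tc 2D library. Of the members that fell, 16 fell against both controls, 7 against WT alone and 6 against the ZHBTc4 control alone. This split was not counted over all genes, of which 25.8% fell against WT and 23.6% against the ZHBTc4 control. Mrpl36 (-2.09), Mrpl50 (-2.02) and Mrpl34 (-1.86) were lowest here too. The riser was Mrps18a (0.63), with deposited levels of 42.6 CPM at Tc 2D and 30.7 and 31.2 CPM in the controls. Without the first control library 17 members fell (23.0%) and 2 rose, with falls and rises at 24% each over all genes. Without the second 25 fell (33.8%) and 1 rose, against 24% falls and 23.6% rises of all genes.

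**Figure D3:**
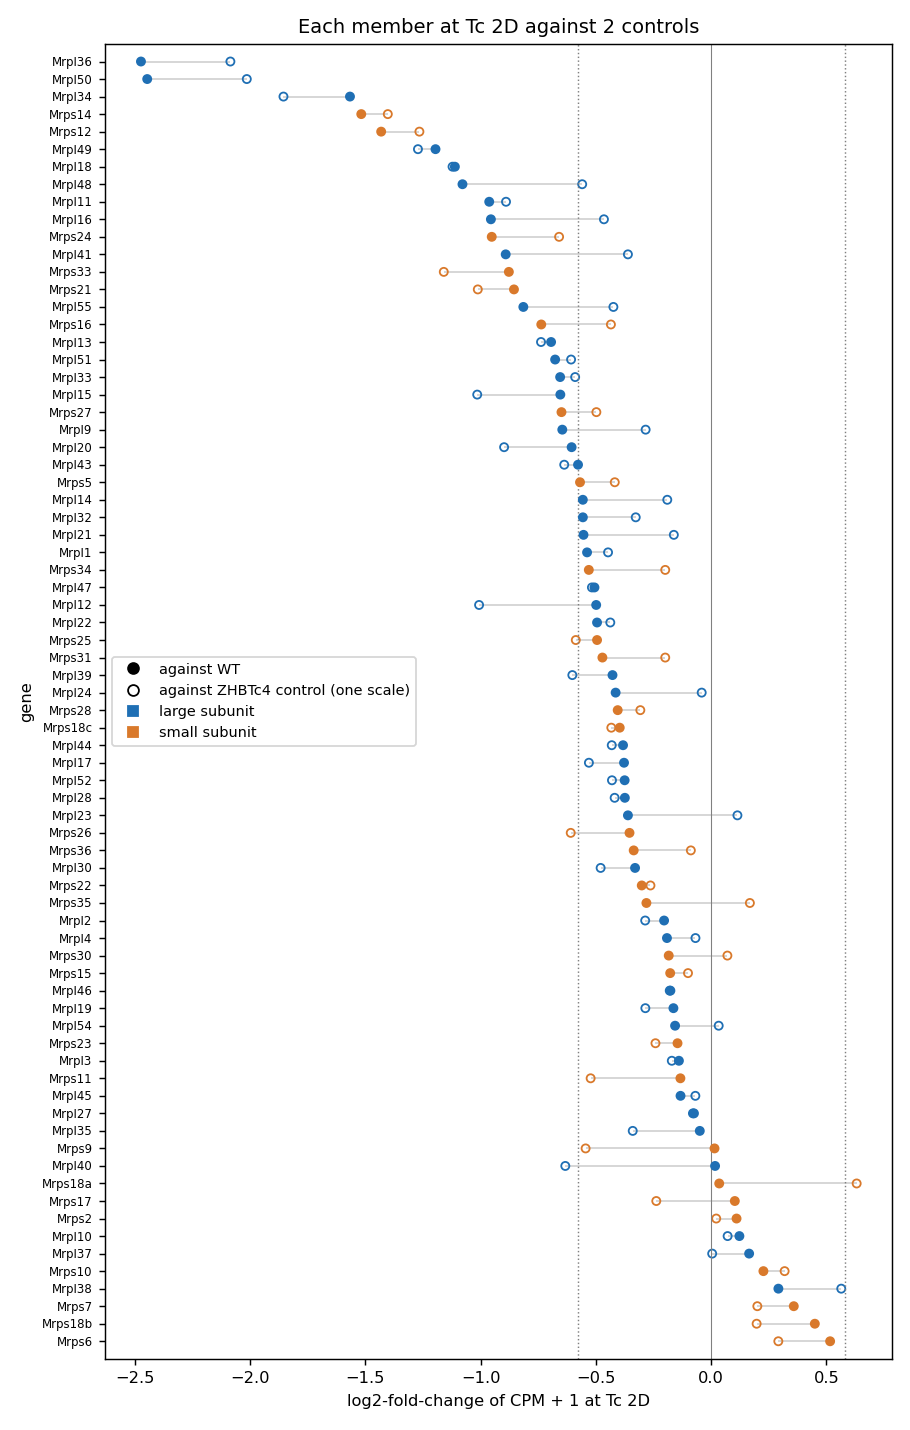
Log2-fold-change of CPM + 1 at Tc 2D for 74 members, against WT (filled) and against the mean of the ZHBTc4 control shRNA libraries on one median-ratio scale (open), with large-subunit genes in blue, small-subunit genes in orange and the thresholds dotted. Mrpl36, Mrpl50 and Mrpl34 lie lowest against both controls, and Mrps18a is near 0 against WT (0.03) and above the threshold against ZHBTc4 (0.63).

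The scale bears on these counts. In RPM of reads on genes, the median of all genes at Tc 2D moved to 0.24 from -0.06 and the members' median to -0.10, with 12 members fallen (16.2%) and 4 risen (5.41%) instead of 23 and 0. Of all genes, 16.4% fell and 35.4% rose on this scale. The members' median less that of all genes was -0.35 with the deposited CPM and -0.34 on this scale. Mrpl36 (-2.24) and Mrpl50 (-2.16) fell on this scale too.

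Cell type markers moved too. Of 10 ES cell markers 9 fell at Tc 2D (summed level 3680 CPM in WT and 484 CPM), and 8 of 9 trophectoderm markers that passed the filter rose (248 and 543 CPM over 10 genes), with Hand1 at 0.268 and 61.8 CPM. The ninth, Tfap2c, which made up most of the sum in WT, fell from 192 to 85.5 CPM (-1.16) but was higher than in ZHBTc4 control cells (0.92). Elf5 was at 0 in WT. Of primitive endoderm markers 4 of 7 rose and 0 fell (89.7 and 296 CPM over 10 genes, Col4a1 2.59, Gata6 1.97). Against ZHBTc4 control cells 4 of 7 rose too, but not the same 4. Gata4 rose there only (1.47, and -0.12 against WT), and Lama1 against WT only (0.59, and -0.29 against ZHBTc4 control cells). Of fibroblast markers 6 of 14 fell and 3 rose (864 and 689 CPM over 16 genes), with Acta2 and Postn at 0 at Tc 2D. Against ZHBTc4 control cells 4 fell and 1 rose. Of the 3 that rose against WT, Pdgfrb rose here too (1.32), but Vim (1.79 against WT) and Col5a1 (1.12) were at -0.45 and -0.52. The part of these cell types in the members' values was not tested.

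**Figure D4:**
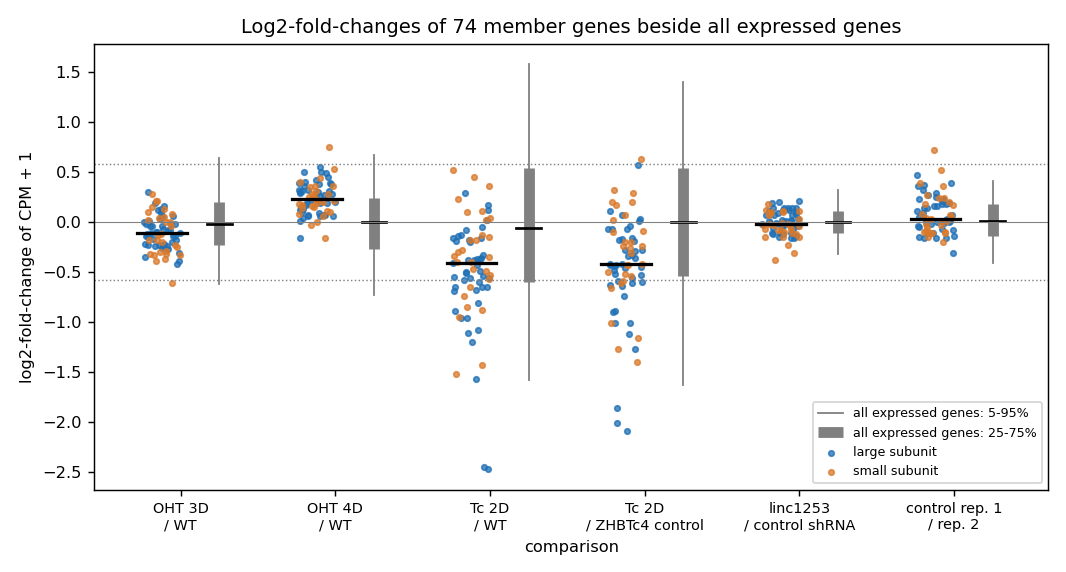
Log2-fold-changes of CPM + 1 for 74 members (points; black line, median) beside all expressed genes (thin bar, 5 to 95%; thick bar, 25 to 75%; short line, median) in the comparisons named and between the control shRNA replicates. The members' median is above that of all genes at OHT 4D (0.23) and below it at Tc 2D against WT (-0.41) and against ZHBTc4 control (-0.42), and near 0 for linc1253 knockdown.

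Many members share a promoter region with a neighbour on the other strand. Of 25 members with such a partner start within 1000 b, 23 had a partner that passed the filter. Mrpl46 and Mrps11 are each other's partners and count under both. At Tc 2D 7 of the 23 members fell, and 5 partners fell and 4 rose, all of them shares near the 25.8% and 23.9% of all genes. In 2 pairs both fell, Mrpl49 with Fau, a cytosolic ribosomal protein gene (-1.20 and -1.08), and Mrpl51 with Ncapd2, a condensin subunit (-0.68 and -0.91). Against ZHBTc4 control cells Ncapd2 was not called (-0.53). Across the 23 the log2-fold-changes of member and partner had r = -0.25, a description only. Mrps18b and Ppp1r10, with starts 45 b apart, went opposite ways (0.45 and -1.30). Among neighbouring genes looked up outside these pairs, Ndufs6 (-0.75) and Tcp1 (-0.60), which shares exonic bases with Mrpl18, fell at Tc 2D against WT. Slc5a3 (1.05) and Ccdc142 (1.10) rose, and Nr2c2 (-0.10) and Dda1 (-0.12) were not called.

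Other genes of mitochondrial translation were followed by lists, and their counts at Tc 2D stand beside falls of 25.8% and rises of 23.9% over all genes. Of 6 mitoribosome subunits with other symbols, which include Dap3 and Ptcd3, 0 were called at either OHT time point, with medians of -0.15 and 0.22. At Tc 2D 2 of 6 fell, Gadd45gip1 from 14.5 to 4.90 CPM (-1.40) and Chchd1 from 40.5 to 26.4 CPM (-0.60), and the median was -0.49. Mrp63, a large-subunit gene under an older symbol that was looked up after the values were seen, had 20.8 CPM in WT and 6.27 at Tc 2D (-1.59), and 13.9 and 13.2 CPM in the control shRNA libraries.

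Of 23 assembly factors that passed, 2 rose at OHT 4D, Rbfa (0.66), which helps finish the small subunit, and Mrm2 (0.62), an rRNA methyltransferase. At Tc 2D 4 fell and 1 rose. The falls included Ddx28 (-1.44), an RNA helicase of large-subunit assembly, and Rbfa (-1.31), and the riser was Mterf3 (0.67). Of 15 translation factors, 1 fell at OHT 3D, Mtres1 (-0.70), and 2 fell and 1 rose at Tc 2D. The falls there were Lrpprc, which stabilises mitochondrial mRNAs (-1.46), and Mtrf1 (-0.61), and the riser Mtif3 (0.65).

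Among 20 mitochondrial aminoacyl-tRNA synthetases and related enzymes, 0 were called at either OHT time point. At Tc 2D Lars2 fell (-1.03) and Wars2 (1.34) and Qrsl1 (1.14) rose. Their median at Tc 2D was 0.09. Of 11 genes of mitochondrial DNA transcription and maintenance, 5 fell at Tc 2D, among them Ssbp1 (-0.93), Tefm (-0.90) and Tfam (-0.69), and 0 were called at OHT. This share of falls was above that of all genes against WT, and those of the assembly factors, translation factors, synthetases and regulators were below it. Of 9 regulators of nuclear genes for mitochondria that passed, Nrf1 (-0.90) and Pprc1 (-1.09) fell and Ppargc1b rose (1.34) at Tc 2D. At OHT 3D 1 rose, Myc (1.47), which was also called on day 4 (0.96), when Gabpb2 and Ppargc1b fell (-0.63 each).

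Against ZHBTc4 control cells on one scale, several of these calls at Tc 2D ended or moved. Mtrf1 turned direction (0.34), and Tefm (-0.16), Chchd1 (-0.50) and Mtif3 (0.48) were not called. Lrpprc (-0.73), Gadd45gip1 (-0.72), Pprc1 (-0.68) and Wars2 (0.81) were called with smaller values and Lars2 with a larger one (-2.0). Of all genes, 23.6% fell and 23.6% rose in this comparison. By list, 1 of 6 other subunits fell, 5 assembly factors fell and 1 rose, 2 translation factors fell and 1 rose, and 2 synthetases fell and 3 rose. Of the genes of mitochondrial DNA 3 of 11 fell, with a median of -0.14 in place of -0.45, and of the regulators 3 fell and 1 rose.

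Knockdown of linc1253 was compared with control shRNA by limma, 2 libraries against 2, without pairing libraries by replicate number. Calls with replicate number in the fit differed and are given with the other alternatives at the end. No member was called at an adjusted p below 0.05, nor was any of 13407 genes (0%). The study, by another rule, did report differentially expressed genes after this knockdown. It combined the p-values of an edgeR exact test and a log2-median ratio test. The members' median log2-fold-change was -0.02, with 33 of 74 above 0. Nothing in the labels says that replicates came from separate cultures, so p-values measure the spread between these libraries only. At an unadjusted p below 0.05 in limma there were 2 members (both lower) and 7.45% of all genes. The quasi-likelihood test of edgeR called 0 members and DESeq2 0.

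The 2 members were Mrps25 and Mrps10, both small-subunit proteins. Mrps25 had 55.6 and 52.9 CPM with control shRNA and 42.8 and 44.5 CPM with linc1253 shRNA, a log2-fold-change of -0.31 ± 0.09 (SE, n = 2 each, limma adjusted p = 0.597). Mrps10 had 56.8 and 60.7 CPM against 50.3 and 49.1 CPM (-0.24 ± 0.09, limma adjusted p = 0.652). The groups did not overlap for either gene, but 53.7% of the exonic bases of Mrps25 are shared with Nr2c2, and neither passed the adjusted threshold.

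Mrps12 had the lowest value, -0.39, but its groups overlapped, at 38.5 and 26.5 CPM with control shRNA against 26.8 and 21.9 CPM. Mrpl35 (-0.16) and Mrpl38 (-0.16) came next. At the other end were Mrpl46 (0.21), Mrpl16 (0.20), Mrpl44 (0.19), Mrps31 (0.18) and Mrpl27 (0.14). In all 4 pairs of libraries 11 members were higher after knockdown (14.9%) and 12 lower (16.2%), against 18.8% and 19.2% of all genes. The shares of members without overlap were thus near those of all genes.

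Pontin ChIP reads were counted from 2.5 kb before to 500 b after each start in NCBIM37 and set against GFP ChIP, each as RPM of its library (40729076 reads for Pontin and 17185883 for GFP). Over 75 member promoters the median log2 ratio was 0.55, against 0.34 over 21193 promoters and 0.44 over the 13308 promoters of expressed genes. A ratio above 1 was found for 18 members (24.0%), and for 14.4% of all promoters and 16.7% of those of expressed genes. The Pontin reads of the members peaked just after the start. In the 250 b centred 125 b after it, there were 1.24 RPM per kb per gene for Pontin and 0.416 for GFP, and over expressed genes 0.903 and 0.443. With 1 library each there is no test.

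**Figure D5:**
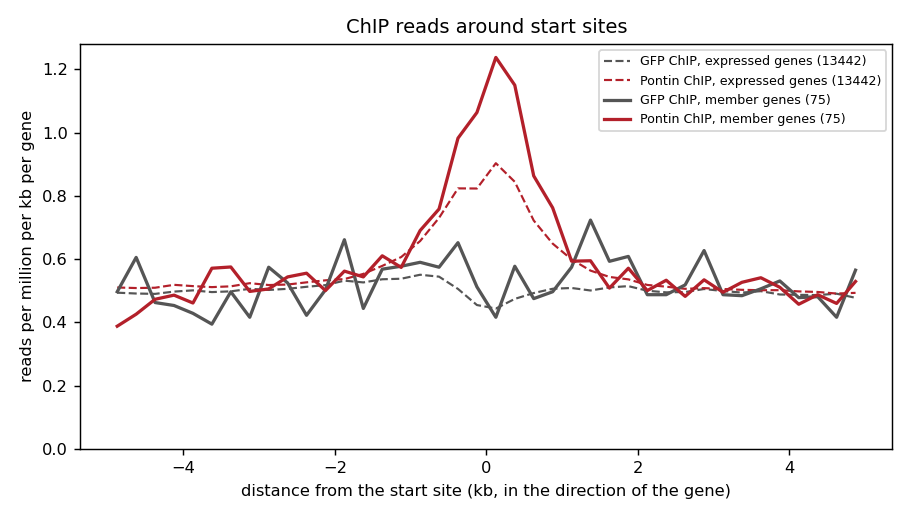
Pontin (red) and GFP (grey) ChIP signal in RPM per kb per gene around the start sites of 75 members (solid) and 13442 expressed genes (dashed), with distance in kb along the gene. The Pontin line of the members peaks at 1.24 just after the start, where that of expressed genes is at 0.903, and the GFP line of the members is at 0.416.

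The highest ratios were those of Mrpl39 (1.72, 95% counting interval 0.81 to 2.78, from 86 Pontin and 11 GFP reads), Mrps12 (1.56), Mrpl16 (1.51), Mrpl11 (1.47) and Mrpl1 (1.43). The lowest were Mrpl10 (-0.60, -1.13 to -0.06, from 78 and 50 reads), Mrpl28 (-0.52), Mrpl15 (-0.51), Mrps18a (-0.35) and Mrps18c (-0.29). Intervals of this width follow from a median of 27 GFP reads per member promoter. Mrps18b, the third of its family, had a ratio of 1.27, from 149 and 26 reads, so the family spanned most of the range.

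The Pontin ratio was set beside the change in mRNA. At OHT 3D the 18 members with a ratio above 1 had a median of -0.10 and the other 56 one of -0.14. On day 4 these medians were 0.25 and 0.23. At Tc 2D the medians were -0.35 and -0.48, with 4 of 18 and 19 of 56 fallen. Of the 5 members that were lowest at Tc 2D, Mrps12 had one of the highest ratios (1.56), Mrpl50 (0.62) and Mrpl34 (0.52) were near the median, and Mrps14 (0.01) and Mrpl36 (-0.06) near 0. For promoter letters, the median at Tc 2D with and without the match was -0.55 and -0.40 for the ETS core (10 of 23 and 11 of 42 fallen), -0.56 and -0.42 for the YY1 core (5 of 11 and 16 of 54) and -0.46 and -0.41 for the NRF1 core (2 of 8 and 19 of 57). It was -0.95 and -0.42 for TATAAA (3 of 5 and 18 of 60), -0.40 and -0.45 for the E-box (2 of 5 and 19 of 60) and -0.43 and -0.45 for CCAAT (9 of 25 and 12 of 40). Of all genes, 25.8% fell at Tc 2D against WT. The splits by Pontin ratio and by promoter letters were made over members only, not over other genes, and were not tested.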

How the data were processed

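mRNA was sequenced in 8 libraries and ChIP-sequencing was done in 2. Per the authors' methods, the deposited mRNA values are CPM, made by aligning trimmed reads to NCBIM37 with TopHat, counting on genes with HTSeq and normalizing by TMM in edgeR, in tables of 4 libraries each. HTSeq settings are not given in the sources used here. The deposited ChIP-sequencing files list 1 read a line, with the mapping quality score the alignment gave it. Bowtie2 was the aligner. Reads on genes were recovered from CPM steps for 100% of values within 0.01 read.

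The members and lists were chosen with earlier results of these data known. The filter was more than 1 CPM in at least 1 library of a table. Log2-fold-changes were computed with a pseudocount of 1 and called beyond 0.58 in either direction. Counting intervals are exact and binomial at 95%. They cover counting error only, because PCR copies of a molecule cannot be recognised here. linc1253 knockdown was tested with limma 3.58.1 (trend, Benjamini-Hochberg over all genes), with edgeR 4.0.16 and DESeq2 1.42.0 on recovered reads as alternatives. Scripts ran in R 4.3.3 and Python 3.11.15 with numpy 2.4.6, pandas 2.3.3 and scipy 1.17.1, and were tested on simulated data. Symbols were matched for 22337 of 22713 IDs. Exons, starts and neighbours came from the NCBIM37 annotation and promoter letters from RefSeq in GRCm38.p6, with no conversion between builds.

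Named members were, per comparison, the 5 highest and 5 lowest log2-fold-changes at a mean of at least 5 CPM, all called members if 10 or fewer, the ends of the order per kb and of the ChIP ratios, the Mrps18 family, and members not passing the filter. Of other lists, up to 4 called genes were named. Alternatives were other pseudocounts (0.5 and 3), filters, scales, thresholds, controls and tests, leaving out each library, and for ChIP 1 read per position, another scaling and another window.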

Additional observations from a re-analysis of the deposited data

Results flagged for a closer look

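The members' median log2-fold-change lay on opposite sides of 0 at the OHT time points, at -0.11 at OHT 3D and 0.23 at OHT 4D against the same WT library. With 1 library at each time the difference was not tested.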

How the results depend on the processing

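Across the pseudocounts, filters and scales tried, the members' medians kept their sign in the comparisons with WT. In RPM of reads on genes, OHT 3D had 0 falls and a median of -0.077, OHT 4D 2 rises (7.86% of all genes) and a median of 0.28, and Tc 2D 12 falls, 4 rises and a median of -0.10. Median-ratio rescaling gave a median of -0.36 at Tc 2D. The call of Mrps24 at OHT 3D was lost (0 falls) with a pseudocount of 3 and at a threshold of 1. At that threshold there were 0 rises at OHT 4D (2.38% of all genes) and 8 falls at Tc 2D (10.8%, against 12.6% of all genes). With OHT 3D as control, added after seeing the data, 6 members rose at OHT 4D with a median of 0.33. Against the ZHBTc4 control with deposited CPM, 39 members fell (52.7%) and 0 rose at Tc 2D with a median of -0.61, against 30.1% falls, 17.9% rises and a median of -0.17 over all genes, values set across separately normalized tables, and on one scale 1 rose. Leaving out either control library there, also added later, gave 17 to 25 falls, 1 to 2 rises and medians from -0.41 to -0.34. For linc1253, leaving out each library gave medians from -0.0275 to 0.0324 and 0 calls of members, where the lone library left in a group is assumed to vary like the pair in the other. With replicate number as a block, 3 of 74 members rose and 3 fell, against 933 and 1027 of 13407 genes, so the members' shares were not above those of all genes. The risers were Mrpl46, Mrpl16 and Mrpl44, and the falls were in Mrps12, Mrps25 and Mrps10. The deviations of same-numbered libraries from their group means correlated at 0.80 over the members and 0.67 over all genes. With 2 pairs and no label of a shared batch, this is a hint from the data that the numbers pair the libraries and not part of the design. DESeq2 called 23 genes up and 27 down of all genes, and 0 members. The cause of these changes was not tested. The depth of the ChIP libraries limits ratios for single promoters.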
